A study of Mus musculus with 18 samples.

Results

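The 59 genes described here are the ligands, receptors, SMAD proteins, secreted antagonists and Id proteins of the transforming growth factor beta (TGF-beta) superfamily. They were chosen by symbol (TGF-beta ligands and receptors, every Bmp, Bmpr, Gdf, Acvr and Smad symbol, the inhibin and activin subunits, Id1 to Id4, secreted antagonists and Mstn), and they are 59 of the 21899 gene IDs in each table. The choice was made with earlier results of these data known. RNA came from inguinal white adipose tissue, a fat depot under the skin, of C57BL/6J males. Each mouse received a subcutaneous injection of Lewis lung carcinoma (LLC) cells, which grow as a tumour of lung origin, or of phosphate-buffered saline (PBS) alone. The labels call day 21 cachexia and day 7 pre-cachexia. The day 21 groups are LLC (n = 5) and PBS (n = 4), and the day 7 groups are likewise LLC (n = 5) and PBS (n = 4). No transgene or mutation is named for any group. The sources used here state neither the age of the mice nor which animal gave which library, so p-values measure the spread between libraries, part of which may be technical. Each day also has its own table, so a difference between days and a difference between tables cannot be told apart.

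Ligands of this superfamily are secreted dimers that bring together a type II and a type I receptor, which are both serine/threonine kinases. TGF-betas and activins act mainly through Smad2 and Smad3, and bone morphogenetic proteins (BMPs) through Smad1, Smad5 and Smad9. These receptor SMADs join Smad4 and enter the nucleus, while Smad6 and Smad7 block the receptors, and antagonists such as follistatin (Fst) and noggin hold ligands away from them. The Id genes are classic targets of BMP signalling: their proteins pair with basic helix-loop-helix factors and keep them from DNA. In fat, TGF-beta is known for restraining the formation of fat cells from progenitors, Bmp4 and Bmp7 for promoting fat cell commitment and brown fat cell formation, and Acvr1c (ALK7) for restraining lipolysis.

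Promoters are shown for the 2 members whose tumour effect differed between days, Id2 and Smad9, and beside them for Id3, an Id gene for which no call was made, and Tgfbr2, the type II receptor with the highest TPM level. Each is the 250 bases before the start that RefSeq gives on GRCm38.p6, read 5′ to 3′ on the gene's strand. The GENCODE extents of Id2 and Id3 begin further upstream than these RefSeq starts, so the Id2 window lies inside the GENCODE gene and so does the Id3 window. Capitals mark GGCGCC, a GC-rich SMAD site, in Id2 and Smad9, and CAGAC or its reverse complement GTCTG, the SMAD box, in Id3 and Tgfbr2. The windows are chr12:25096093-25096342 (minus strand), chr3:54755332-54755581 (plus strand), chr4:136143572-136143821 (plus strand) and chr9:116175364-116175613 (minus strand).
Id2: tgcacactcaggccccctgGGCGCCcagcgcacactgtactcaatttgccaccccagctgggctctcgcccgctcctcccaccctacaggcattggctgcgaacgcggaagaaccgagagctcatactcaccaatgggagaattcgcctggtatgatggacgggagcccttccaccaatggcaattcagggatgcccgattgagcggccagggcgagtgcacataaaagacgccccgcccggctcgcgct
Smad9: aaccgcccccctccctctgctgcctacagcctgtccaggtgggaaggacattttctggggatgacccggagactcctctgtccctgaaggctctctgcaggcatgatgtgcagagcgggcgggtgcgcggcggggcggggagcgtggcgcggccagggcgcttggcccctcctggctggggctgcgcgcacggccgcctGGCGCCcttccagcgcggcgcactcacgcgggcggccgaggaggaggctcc
Id3: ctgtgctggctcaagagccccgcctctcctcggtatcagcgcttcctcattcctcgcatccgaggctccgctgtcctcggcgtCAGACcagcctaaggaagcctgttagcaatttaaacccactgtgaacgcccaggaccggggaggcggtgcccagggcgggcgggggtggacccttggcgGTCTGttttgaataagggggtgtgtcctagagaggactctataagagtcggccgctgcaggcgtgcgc
Tgfbr2: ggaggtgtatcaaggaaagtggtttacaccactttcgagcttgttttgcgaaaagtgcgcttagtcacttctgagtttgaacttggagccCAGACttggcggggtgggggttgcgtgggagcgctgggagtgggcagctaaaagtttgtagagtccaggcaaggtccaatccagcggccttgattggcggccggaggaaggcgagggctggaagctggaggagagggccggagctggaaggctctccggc
The GGCGCC began at base -231 in Id2 and at base -51 in Smad9, counted from the RefSeq start. CAGAC began at -167 in Id3 and at -160 in Tgfbr2, and GTCTG at -68 in Id3. Among windows that are not shown, that of Id4 held GGCGCC at -148, and those of Bmp4 and Inhbb held neither site. Promoter windows were found for 41 of the 59 members. Counted by gene, with any of a gene's windows, GGCGCC was in 9 of those 41 members and in 10.85% of all 27025 genes, and the SMAD box on either strand was in 21 of the 41 members and in 45.8% of all genes. Counted by window, the shares of all 32851 windows were 9.59% for GGCGCC and 42.19% for the SMAD box. These matches describe the letters in the windows and no binding was measured.

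Levels were compared between genes in TPM, a measure of relative transcript abundance which the authors scaled for transcript length. Over the 18 libraries 26 members averaged at least 10 TPM, 13 averaged from 1 to under 10 TPM and 20 averaged under 1 TPM. The highest were Id3 (106 ± 27.4 TPM, SD, n = 18), Tgfbr2 (102 ± 34.7 TPM), Id1 (90.2 ± 39.3 TPM) and the co-receptor Tgfbr3, also named betaglycan, which presents TGF-beta2 to Tgfbr2 (78.3 ± 22.7 TPM). These 4 overlap within their spread over libraries, so their order is not resolved. Bmp1, which shares the BMP name but is a protease that trims procollagen, averaged 57.1 ± 32.3 TPM.

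Receptors and SMADs were present for every branch of the pathway. Among type I receptors Acvrl1 (ALK1), known from endothelium, averaged 39.3 ± 11.4 TPM, Bmpr1a 36.5 ± 6.81 TPM and Acvr1c 28.5 ± 6.42 TPM, while Bmpr1b averaged 0.15 ± 0.109 TPM. Among receptor SMADs Smad2 averaged 31.8 ± 4.43 TPM and Smad5 26.1 ± 3.75 TPM, with Smad4 at 28.1 ± 4.12 TPM, and these 3 overlapped. Smad9 was far below them at 0.547 ± 0.271 TPM, resting on 11 to 59 counts per library. The inhibitory Smad6 averaged 5.99 ± 1.62 TPM and Smad7 4.28 ± 2.00 TPM.

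Ligand transcripts were spread over a wider range. Tgfb1 averaged 38.7 ± 18.7 TPM, against 11.5 ± 4.15 TPM for Tgfb3 and 2.50 ± 1.16 TPM for Tgfb2. Bmp6 led the BMPs at 19 ± 3.71 TPM, Gdf10, also named Bmp3b, led the growth differentiation factors (GDFs) at 18.8 ± 10.9 TPM, and Inhbb, the subunit of activin B, led the activin and inhibin subunits at 16.7 ± 8.24 TPM. Fst was the most abundant of the 5 secreted antagonists at 17.0 ± 7.28 TPM. Bmp10 had 0 counts in all 18 libraries.

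**Figure D1:**
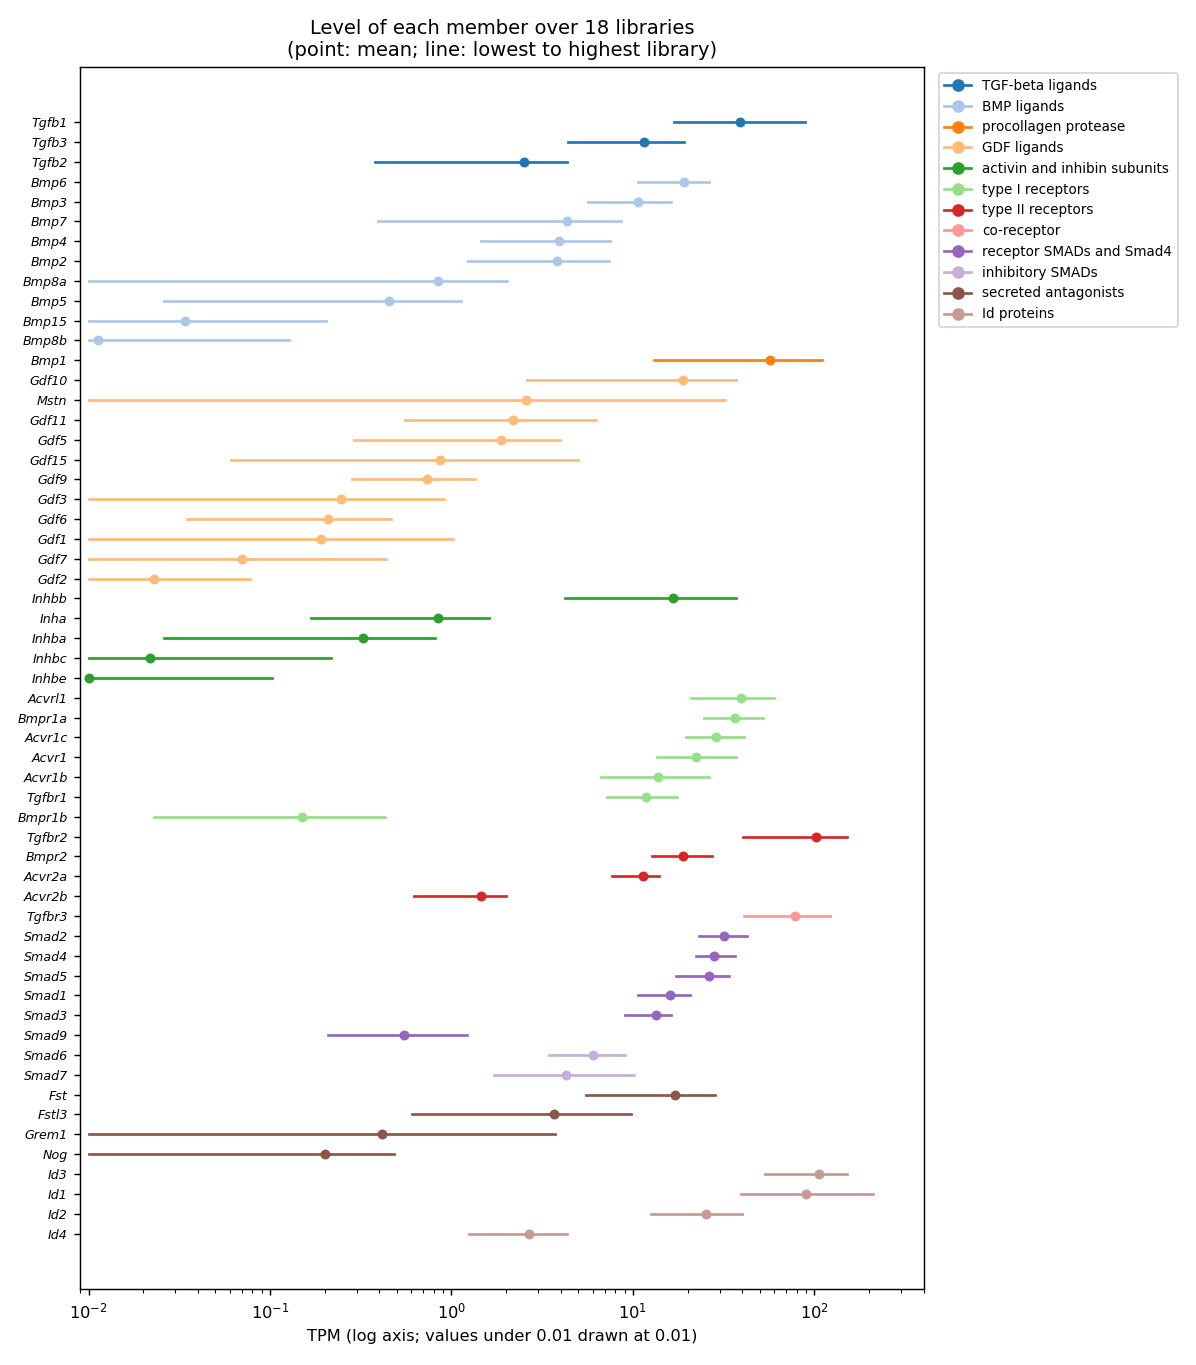
Mean TPM (points, log axis) and range over 18 libraries (lines) for 57 members with a count, grouped and coloured by role. Id3, Tgfbr2, Id1 and Tgfbr3 stand highest, and Smad9 lies far below the other receptor SMADs.

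Cell makeup differed between libraries, and its part in the results was not tested. Total counts ran from 14566155 to 18969387 per library, and 8.446% to 20.825% of counts were mitochondrial. Summed over 12 progenitor and fibroblast markers, none of them at 0 in a whole group, levels were 2714 to 3471 CPM (counts scaled to library size by TMM on all 18 libraries) in day 21 LLC, 1075 to 3416 CPM in day 21 PBS, 2243 to 4808 CPM in day 7 LLC and 3973 to 5519 CPM in day 7 PBS. The 10 macrophage markers summed to 784.6 to 2431 CPM in day 21 LLC, 184.4 to 1830 CPM in day 21 PBS, 1025 to 2171 CPM in day 7 LLC and 1351 to 2132 CPM in day 7 PBS. Day 21 PBS libraries 1, 2 and 3 held the low end of both lists (1343, 1337 and 1075 CPM for progenitors, and 295, 312.8 and 184.4 CPM for macrophages), while PBS library 4 of that day had 3416 CPM and 1830 CPM. The 7 mast cell markers summed to 77.75 to 152.4 CPM in day 21 LLC, 18.79 to 37.1 CPM in day 21 PBS, 60.73 to 107.7 CPM in day 7 LLC and 50.35 to 85.78 CPM in day 7 PBS, and 4 of them (Cma1, Cpa3, Mcpt4 and Tpsb2) were called higher in LLC at day 21 by edgeR. The 5 red cell markers summed to 1270 to 4446 CPM in day 21 LLC, 353.7 to 861.3 CPM in day 21 PBS, 1220 to 3137 CPM in day 7 LLC and 777 to 1068 CPM in day 7 PBS. Both sums were lower in all 4 day 21 PBS libraries, library 4 included, than in any LLC library; for red cells, day 21 PBS library 2 lay within the day 7 PBS range. All 10 adipocyte markers were present in every group. They summed to 23020 to 61280 CPM in day 21 LLC and 38930 to 51050 CPM in day 21 PBS. At day 7 the sums were 26450 to 35050 CPM in LLC and 27370 to 36560 CPM in PBS. In LLC against PBS at day 21, 8 of these markers were lower and 2 higher, with 0 called by edgeR. The 6 Schwann cell markers summed to 391.8 to 816.5 CPM in day 21 LLC and 862 to 1624 CPM in day 21 PBS. Of the 10 endothelial markers 8 were higher and 2 lower in LLC at day 21 (median log2 fold change 0.17), with 0 called by edgeR. B cell and lymph node markers reached 1444 CPM in day 21 LLC library 3, against at most 15.44 CPM in the other 17 libraries, and cell cycle markers reached 348.9 CPM in day 21 LLC library 1. In bulk tissue fewer cells of a type and less RNA per cell cannot be told apart.

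**Figure D2:**
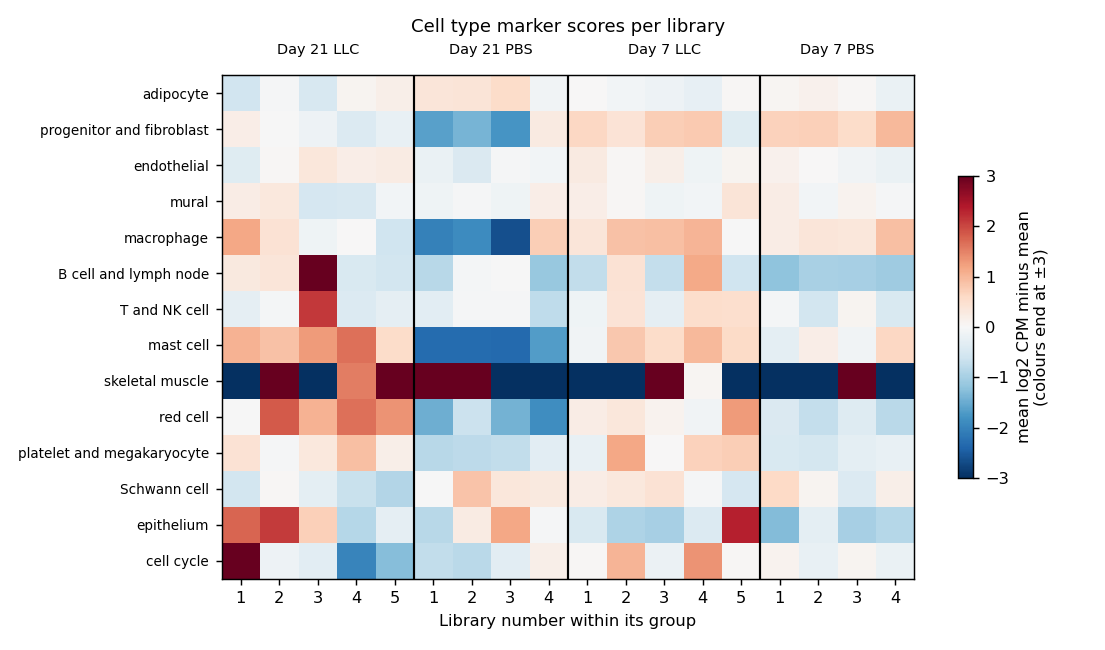
Score of 14 marker lists (rows) in each library (columns): the mean log2 CPM of the list's tested genes, each minus its mean over 18 libraries. Day 21 PBS libraries 1 to 3 are low in the progenitor and fibroblast and the macrophage lists, and day 21 PBS library 4 is not.

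At day 21 the tumour was tested against PBS in the 9 libraries of that day. Id2 was the only member called, at an adjusted p under 0.05 in edgeR's quasi-likelihood test with Benjamini-Hochberg adjustment over 13564 genes, where 0.0885% of all genes were called (12 genes). Of the 44 members that passed the low-count filter 28 were higher and 16 lower in LLC, with a median log2 fold change of 0.21 against 0.02 over all genes tested, of which 51.9% were higher. At an unadjusted p under 0.05 there were 14 members, 11 higher and 3 lower in LLC, against a background of 23.3% of genes. The groups did not overlap for 5 members (Id2, Tgfbr2, Bmp4 and Smad9 higher, Inhbb lower), against 9.7% of genes.

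Id2 lies on chromosome 12 (25093799 to 25097140, minus strand, GRCm38). Its level was 20.9, 19.2, 22.5, 19.6 and 20.1 CPM in day 21 LLC libraries, against 9.999, 10.2, 10.1 and 11.2 CPM in day 21 PBS libraries. The groups were far apart, and each was tight (20.4 ± 1.29 against 10.4 ± 0.578 CPM, SD, n = 5 and 4). The log2 fold change was 0.96 ± 0.11 (SE), or 1.94-fold higher in LLC, with an adjusted p of 0.0169 from edgeR. Day 21 PBS library 4, at 11.2 CPM, was the highest of its group in Id2, and its progenitor and macrophage sums were above those of PBS libraries 1 to 3. Mast cell and red cell marker sums, like Id2, were lower in all 4 day 21 PBS libraries than in any LLC library. Schwann cell marker sums were higher in all 4 than in any day 21 LLC library. The part of these cells in the Id2 result was not tested. The call rested on each of the low PBS libraries: leaving out PBS library 1, 2 or 3 gave adjusted p-values of 0.11, 0.0848 and 0.0912 from edgeR, at log2 fold changes of 0.94, 0.95 and 0.94.

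The other Id genes were not called at day 21. Id1 was widest, at 27.6, 35.8, 57.8, 91.4 and 112 CPM in LLC libraries against 38.1, 38.8, 50.7 and 52.8 CPM in PBS libraries (log2 fold change 0.50 ± 0.39, adjusted p 0.439, edgeR). Id3 was at 46.4, 53.4, 81.5, 60.9 and 87.6 CPM in LLC against 62.8, 42.8, 74.3 and 64.5 CPM in PBS (0.09 ± 0.22, adjusted p 0.826, edgeR). In Id1 and Id3 the spread between libraries of a group was larger than the difference between groups. Id4, the least abundant, had a log2 fold change of -0.03 ± 0.33.

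Among receptors at day 21, Tgfbr2 (chromosome 9, 116084293 to 116175360, minus strand), the type II receptor that binds TGF-beta, had the smallest p-value. It was at 332, 376, 407, 454 and 289.5 CPM in LLC libraries, against 132, 152, 166 and 264 CPM in PBS libraries. Every LLC library was above every PBS library, although PBS library 4 came close to the lowest LLC library. The log2 fold change of 1.04 ± 0.22 missed the threshold (adjusted p 0.0683, edgeR). Tgfbr3 had 242, 204, 246, 315 and 280.1 CPM in LLC against 168, 155, 212 and 185 CPM in PBS, where 1 PBS library exceeded the lowest LLC library (0.49 ± 0.15, adjusted p 0.117, edgeR). Acvrl1 was at 61.6, 50.8, 54.2, 42.0 and 54.6 CPM in LLC against 42.1, 35.6, 34.4 and 52.4 CPM in PBS (0.34 ± 0.16, adjusted p 0.232, edgeR), and these groups overlapped. The remaining 8 tested type I and type II receptors had log2 fold changes between -0.34 (Acvr2b) and 0.34 (Tgfbr1), none called.

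Among ligands, Bmp4 and Inhbb separated the groups at day 21. Bmp4 was at 4.82, 5.09, 5.21, 6.14 and 7.60 CPM in LLC, against 1.93, 1.57, 1.63 and 3.75 CPM in PBS (log2 fold change 1.35 ± 0.32, adjusted p 0.0751, edgeR). Inhbb ran the other way, at 24.4, 25.4, 29.1, 13.4 and 25.7 CPM in LLC against 71.4, 41.2, 100.3 and 37.6 CPM in PBS (-1.43 ± 0.32, adjusted p 0.0751, edgeR). Neither passed the threshold, though in both every LLC library lay on one side of every PBS library. Bmp7 was at 4.57, 8.19, 13.3, 8.87 and 6.87 CPM in LLC against 0.783, 2.83, 2.09 and 4.98 CPM in PBS, with 1 pair of libraries crossing (1.63 ± 0.50, adjusted p 0.112, edgeR). Chosen after its values were seen, Gdf5, a cartilage and joint factor, was at 0.885, 0.702, 0.645, 0.507 and 2.73 CPM in LLC against 4.88, 3.27, 5.87 and 1.23 CPM in PBS (-1.82 ± 0.60, adjusted p 0.126, edgeR). Bmp6, a BMP tied to iron control in the liver, was at 18.4, 38.8, 25.1, 28.6 and 39.3 CPM in LLC against 46.3, 41.5, 51.6 and 37.6 CPM in PBS (-0.58 ± 0.22, adjusted p 0.161, edgeR).

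Tgfb1 and Gdf10 varied more within the day 21 groups than between them. Tgfb1 was at 69.9, 38.4, 85.5, 27.4 and 26.3 CPM in LLC against 26.7, 24.2, 28.9 and 52.5 CPM in PBS (log2 fold change 0.56 ± 0.40, adjusted p 0.412, edgeR). Its highest libraries were LLC 1 and 3, which also stood apart in cell cycle or lymph node markers, and PBS 4. Gdf10 was at 70.1, 43.4, 13.5, 10.2 and 24.2 CPM in LLC against 25.1, 27.4, 9.19 and 73.7 CPM in PBS (-0.09 ± 0.67). Its direction depended on single libraries: without PBS library 4 the log2 fold change was 0.63 ± 0.65.

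Of the intracellular SMADs, Smad9 (chromosome 3, 54755582 to 54801257, plus strand) alone separated the groups at day 21. It was at 1.23, 1.46, 2.93, 2.34 and 2.07 CPM in LLC against 0.964, 0.756, 0.717 and 0.676 CPM in PBS, from 25 to 59 counts in LLC and 11 to 16 counts in PBS (log2 fold change 1.34 ± 0.34, adjusted p 0.0833, edgeR). The abundant SMADs lay in a narrow band: Smad1, Smad2, Smad3, Smad4 and Smad5 had log2 fold changes from -0.23 (Smad2) to 0.08 (Smad4), with standard errors of at most 0.14. Smad2 was at 50.6, 52.7, 44.0, 45.6 and 45.5 CPM in LLC against 56.0, 62.0, 57.2 and 45.6 CPM in PBS. Smad6 was at 6.34, 13.3, 8.43, 8.48 and 8.40 CPM in LLC against 10.48, 8.88, 9.78 and 15.1 CPM in PBS (-0.32 ± 0.24, adjusted p 0.431, edgeR). Smad7, the other inhibitory SMAD, had a log2 fold change of 0.69 ± 0.26 (adjusted p 0.161, edgeR).

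Fst, which binds activins and myostatin, was at 15.2, 17.6, 14.1, 19.5 and 12.9 CPM in day 21 LLC against 6.75, 9.76, 9.98 and 15.1 CPM in day 21 PBS. PBS library 4 lay within the LLC range and PBS libraries 1 to 3 below it (log2 fold change 0.59 ± 0.23, adjusted p 0.173, edgeR). The follistatin-like Fstl3 had a log2 fold change of 0.28 ± 0.52. Grem1, a BMP antagonist below the filter, had 129 and 140 counts in LLC libraries 1 and 3 and at most 3 counts in each of the other 16 libraries. Those 2 libraries are the ones that stood apart in cell cycle and lymph node markers, and the link was not tested.

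**Figure D3:**
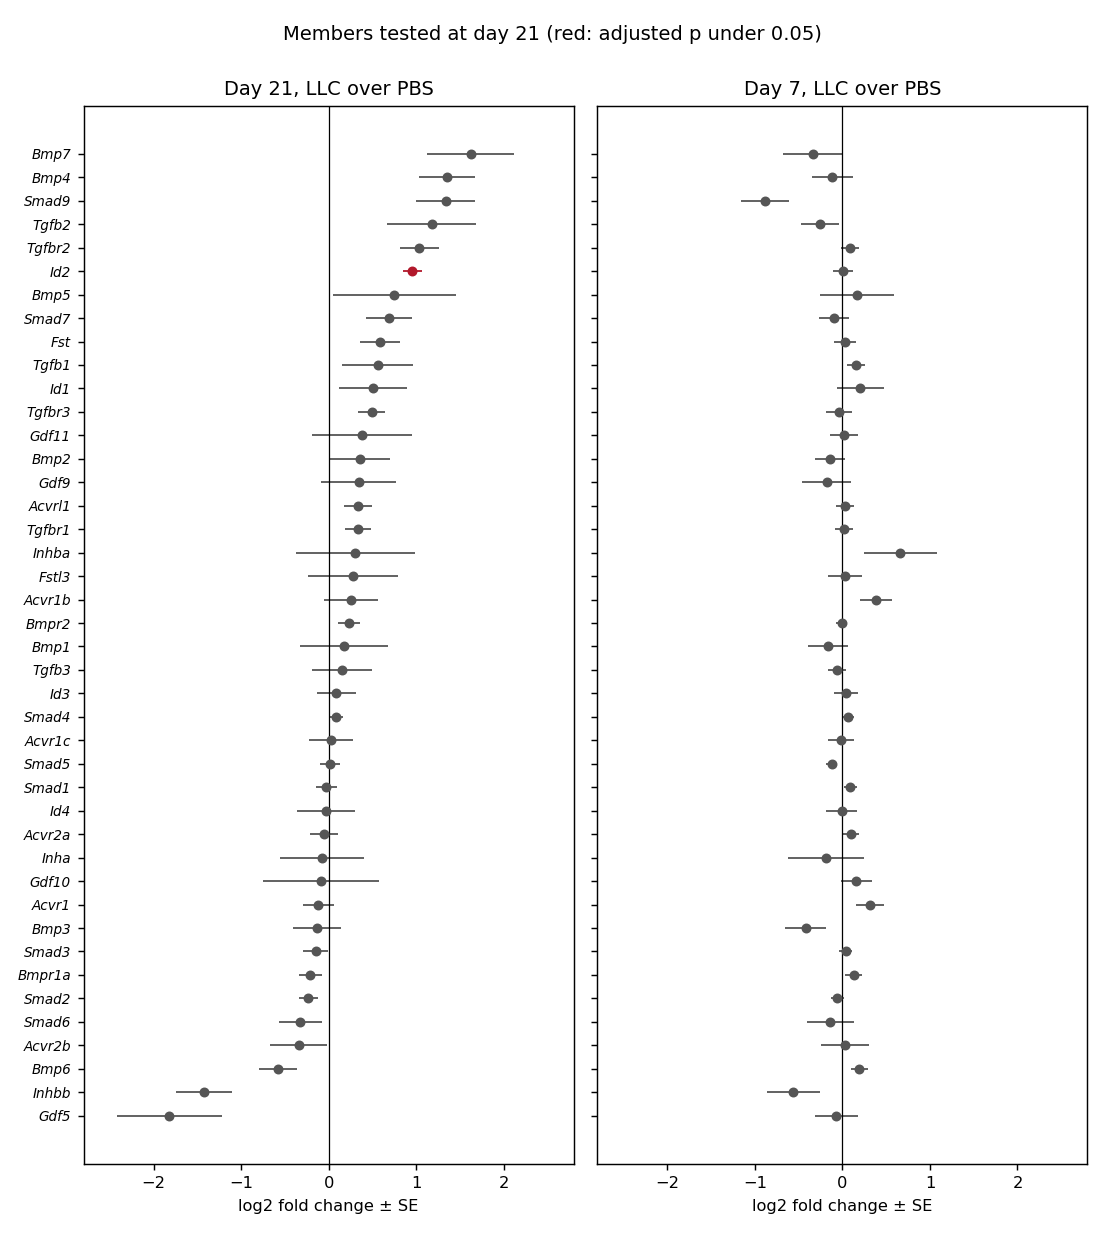
Log2 fold change of LLC over PBS with its SE at day 21 (left) and day 7 (right) for 42 of the 44 members tested at day 21, in the order of the day 21 values; Mstn is left out because its SE is 1.96. Only Id2 at day 21 is coloured as called, and Smad9 is positive at day 21 and negative at day 7.

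The number of members called at day 21 turned on how PBS library 4 and the spread were treated. Without PBS library 4, 8 members were called by edgeR: Id2, Tgfb2, Tgfbr2, Bmp4, Bmp7 and Fst higher and Inhbb and Gdf5 lower. In that fit 9.3% of all genes were called, and 5.81% were called higher. Tgfb2, chosen after its values were seen, was the extreme case: it was at 7.62, 7.78, 5.56, 6.65 and 6.87 CPM in LLC against 1.81, 1.57 and 1.24 CPM in PBS libraries 1 to 3 and 7.37 CPM in PBS library 4. Its log2 fold change was 2.13 ± 0.25 (adjusted p 0.00227, edgeR) without library 4 and 1.18 ± 0.51 (adjusted p 0.203, edgeR) with it. DESeq2 on all 9 libraries also called 8 members (Id2, Tgfbr2, Tgfbr3, Bmp4, Bmp7 and Smad9 higher, Inhbb and Gdf5 lower), where it called 11.4% of genes. In 1 fit of all 18 libraries 12 members were called, where 19% of genes were. The authors' deposited table gives an FDR under 0.05 to 9 members at day 21, namely Bmp4, Bmp7, Bmp8a, Grem1, Id2, Smad9, Tgfbr2 and Tgfbr3 higher and Inhbb lower, and to 0 at day 7. The share of all genes under that FDR in the authors' table was not counted. Those 9 are therefore not read as a result about the members. The log2 ratios of the authors' deposited table exceed the fitted log2 fold changes at day 21 by a median of 0.18 over the 44 tested members.

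**Figure D4:**
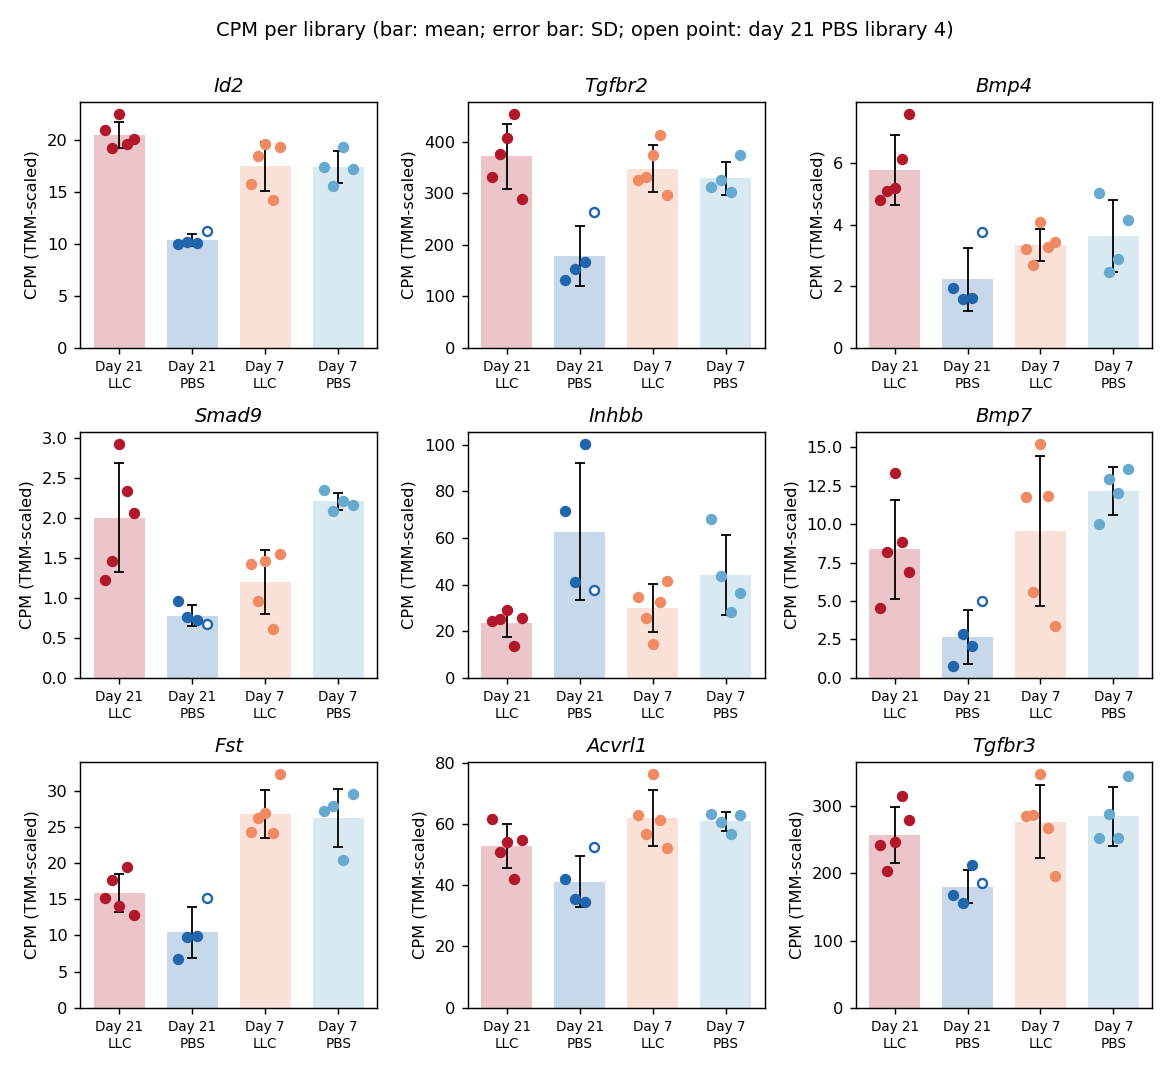
CPM of 9 members in each library (points), with group means (bars) and SD (error bars); the open point is day 21 PBS library 4. Id2 is near 10 CPM in all 4 day 21 PBS libraries and at 14.2 CPM or more in the other 14, while Tgfbr2, Bmp4 and Fst have 1 day 21 PBS library above the other 3.

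At day 7 no member was called in edgeR's quasi-likelihood test, where 0.00744% of genes were called (1 gene), and none was called by DESeq2. Of 44 members tested 24 were higher and 20 lower in LLC, with a median log2 fold change of 0.02 beside 0.005 over all genes, of which 51.1% were higher. At an unadjusted p under 0.05 there was 1 member, Smad9, against 8.51% of genes, and it was also the 1 member whose groups did not overlap, against 2.52% of genes. Smad9 was at 1.42, 0.967, 1.46, 0.611 and 1.55 CPM in day 7 LLC against 2.36, 2.09, 2.22 and 2.16 CPM in day 7 PBS. The PBS libraries had an SD of 0.112 CPM and were all above the LLC libraries (log2 fold change -0.88 ± 0.27, adjusted p 0.425, edgeR). The next smallest p-values belonged to receptors and to Bmp6 and Smad5, and in each the groups overlapped.

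Acvr1b (ALK4), the type I receptor of activins, was at 38.2, 30.6, 47.2, 22.8 and 29.2 CPM in day 7 LLC against 24.3, 26.0, 23.1 and 29.9 CPM in day 7 PBS (log2 fold change 0.38 ± 0.18, adjusted p 0.612, edgeR). Acvr1 (ALK2), a BMP receptor, was at 44.0, 37.0, 46.4, 26.0 and 29.4 CPM in LLC against 25.3, 31.2, 31.4 and 29.6 CPM in PBS (0.32 ± 0.16, adjusted p 0.638, edgeR). For both, LLC libraries 1, 2 and 3 were above the PBS libraries and LLC libraries 4 and 5 were among or below them. Bmp6 was at 42.1, 36.8, 45.4, 34.3 and 39.8 CPM in LLC against 40.1, 31.8, 35.9 and 31.3 CPM in PBS (0.19 ± 0.10, adjusted p 0.642, edgeR), and the groups overlapped. Smad5 was at 92.9, 81.3, 83.3, 84.0 and 89.1 CPM in LLC against 92.6, 98.3, 97.0 and 87.8 CPM in PBS (-0.12 ± 0.06, adjusted p 0.654, edgeR), where only LLC libraries 1 and 5 reached the PBS range. Id2 was at 15.7, 18.5, 19.6, 14.2 and 19.3 CPM in day 7 LLC against 17.4, 15.5, 19.3 and 17.2 CPM in day 7 PBS, with groups that overlapped throughout (0.01 ± 0.11, adjusted p 0.986, edgeR). Tgfbr2 had a log2 fold change of 0.08 ± 0.11 at that day, Bmp4 of -0.12 ± 0.23 and Inhbb of -0.56 ± 0.30.

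The tumour effect at day 21 minus that at day 7 was tested in 1 fit of all 18 libraries. Id2 and Smad9 were called, both higher, where 0.415% of all 13975 genes were called (58 genes). For Id2 the difference was 0.97 ± 0.14 on the log2 scale (adjusted p 0.00927, edgeR), and it remained called whichever of the 18 libraries was left out. For Smad9 it was 2.24 ± 0.43 (adjusted p 0.0382, edgeR), combining higher values in LLC at day 21 with lower values in LLC at day 7, neither of which was called on its own. Smad9's call was lost without any 1 of 13 libraries, with an adjusted p of up to 0.105 from edgeR. Those were the 4 PBS libraries of day 7, PBS libraries 1, 2 and 3 and LLC libraries 3 and 4 of day 21, and LLC libraries 1, 2, 3 and 5 of day 7. Tgfbr2 (0.98 ± 0.25, adjusted p 0.0782, edgeR) and Bmp4 (1.49 ± 0.39, adjusted p 0.0798, edgeR) came next and missed the threshold. Of 46 members tested 31 had a positive difference, with a median of 0.27 against 0.05 over all genes, of which 55.1% were positive.

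Within PBS 7 members were lower at day 21 than at day 7 and 0 higher, where 3.21% of all genes were called (449) and 2.52% were called lower (352). They were Id2, Smad9, Tgfbr2, Tgfbr3, Acvrl1, Bmp7 and Fst. Of 46 members tested 16 were higher and 30 lower at day 21, with a median log2 fold change of -0.26 against 0.006 over all genes, of which 50.9% were higher. These contrasts share the day 21 PBS libraries with the tumour comparison of that day, so the 2 sets of values are not independent. The lowest of all 18 libraries was day 21 PBS library 1, 2 or 3 for 22 of the 46 members (47.8%), and for 26.8% of all genes.

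Id2 averaged 10.4 ± 0.578 CPM in day 21 PBS and 17.4 ± 1.53 CPM in day 7 PBS (SD, n = 4 each), with no overlap (log2 fold change -0.74 ± 0.11, adjusted p 0.00282, edgeR). Fst averaged 10.4 ± 3.47 CPM in day 21 PBS and 26.2 ± 4.00 CPM in day 7 PBS, where the day 7 libraries had 27.1, 27.9, 20.4 and 29.5 CPM (-1.34 ± 0.20, adjusted p 0.00317, edgeR). These were the 2 members that stayed called whichever of the 18 libraries was left out. Even day 21 PBS library 4, at 11.2 CPM of Id2 and 15.1 CPM of Fst, lay below every day 7 library in both genes.

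The remaining calls within PBS were not kept in every fit that left out a library. Tgfbr2 averaged 178 ± 58.6 CPM in day 21 PBS and 329 ± 32.2 CPM in day 7 PBS (log2 fold change -0.88 ± 0.19, adjusted p 0.0235, edgeR), and Bmp7 averaged 2.67 ± 1.76 CPM in day 21 PBS and 12.1 ± 1.55 CPM in day 7 PBS (-2.18 ± 0.49, adjusted p 0.0277, edgeR). Smad9 averaged 0.778 ± 0.128 CPM in day 21 PBS and 2.21 ± 0.112 CPM in day 7 PBS (-1.50 ± 0.32, adjusted p 0.0254, edgeR). Acvrl1 (-0.56 ± 0.14, adjusted p 0.0419, edgeR) and Tgfbr3 (-0.66 ± 0.17, adjusted p 0.0435, edgeR) were just past the threshold. Leaving out any 1 of day 7 PBS libraries 1 to 4 left 2 or 3 of the 7 calls, and leaving out day 21 PBS library 1, 2 or 3 left 2, while without day 21 PBS library 4 there were 12. The share of all genes called in these fits is not given here. These changes in count are therefore not read as results about the members. Progenitor and macrophage marker sums were low in day 21 PBS libraries 1 to 3. All 7 mast cell markers were lower in day 21 PBS than in day 7 PBS (median log2 fold change -3.47), 4 of them called by edgeR. Of the 10 adipocyte markers 8 were higher and 2 lower in day 21 PBS (median 0.41), with 0 called. The 10 endothelial markers went both ways (4 higher, 6 lower, median -0.09), with 1 of them called, the receptor Tek. The part of these cells in the calls was not tested. In Smad9 day 21 PBS library 4, at 0.676 CPM, was the lowest of its group. The macrophage sum of that library, 1830 CPM, was in the day 7 PBS range (1351 to 2132 CPM). Its progenitor sum, 3416 CPM, was below the day 7 PBS range (3973 to 5519 CPM). Its mast cell and red cell sums, at 20.34 and 353.7 CPM, were also below the day 7 PBS ranges.

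Within LLC 1 member was called between the days, where 1.77% of all genes were called (248) and 0.93% were called lower (130). Of 46 members 22 were higher and 24 lower at day 21, with a median log2 fold change of -0.003 against 0.05 over all genes. Fst was at 15.2, 17.6, 14.1, 19.5 and 12.9 CPM in day 21 LLC against 24.2, 26.3, 26.9, 24.2 and 32.3 CPM in day 7 LLC, with no overlap (log2 fold change -0.76 ± 0.17, adjusted p 0.0423, edgeR). It was thus lower at day 21 than at day 7 in both LLC and PBS. The LLC call was at the edge: it was lost without any 1 of 13 libraries, namely all 9 of day 7, LLC 3, 4 and 5 and PBS 2 of day 21, with an adjusted p of up to 0.0923 from edgeR. Bmp4, whose groups also did not overlap, was at 4.82 to 7.60 CPM in day 21 LLC against 3.22, 2.69, 4.10, 3.26 and 3.45 CPM in day 7 LLC (0.79 ± 0.26, adjusted p 0.117, edgeR). Id2 had a log2 fold change of 0.23 ± 0.10 (adjusted p 0.209, edgeR) and Tgfbr2 of 0.09 ± 0.17 (adjusted p 0.808, edgeR) between the days within LLC.

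**Figure D5:**
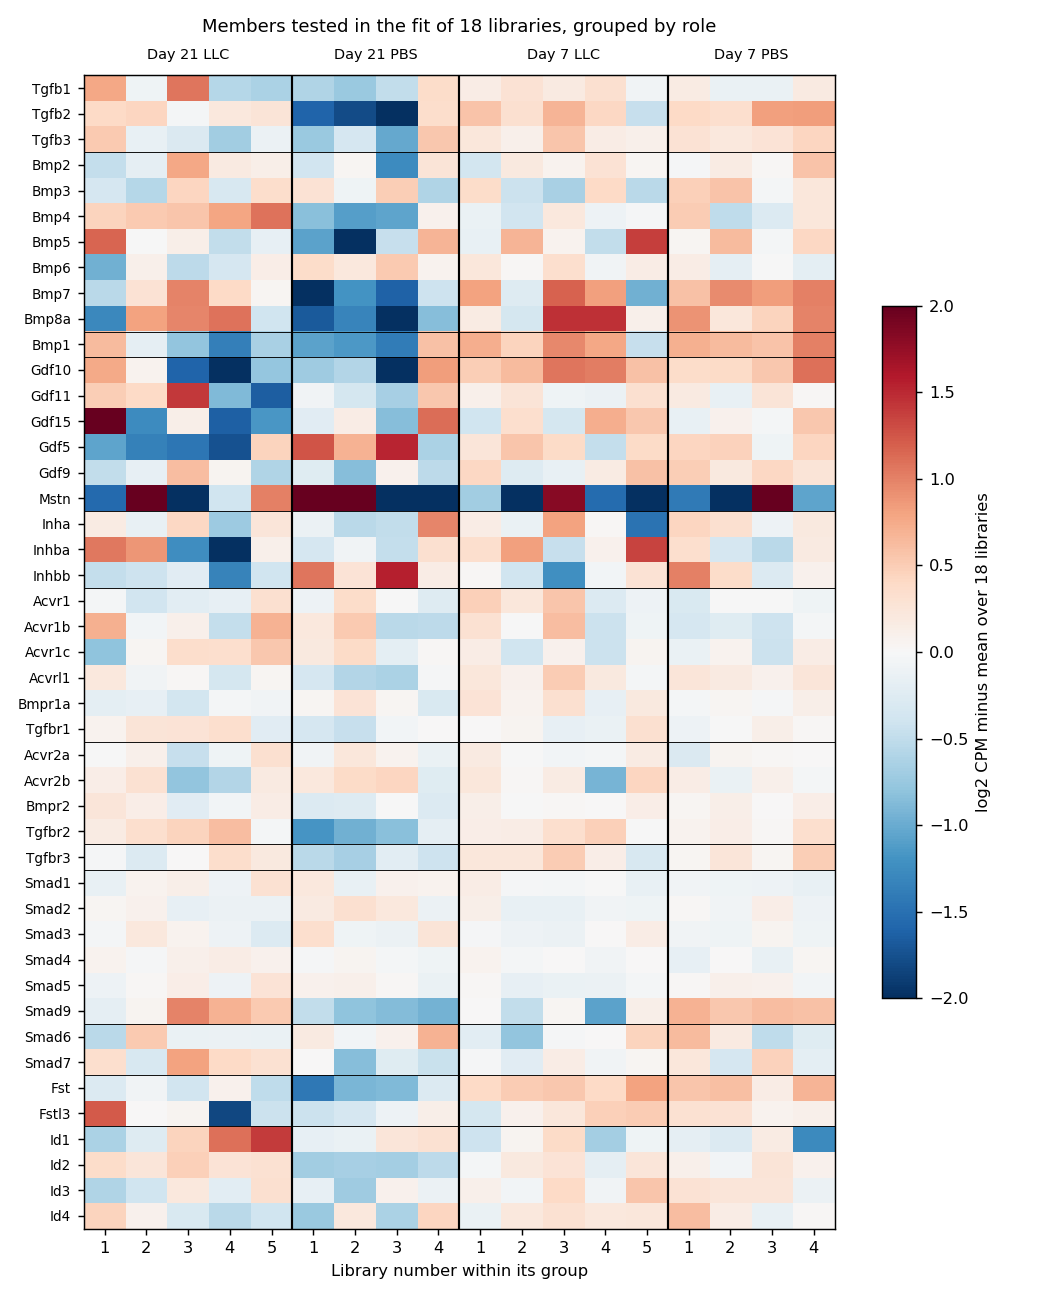
Log2 CPM minus the member's mean over 18 libraries for 45 of the 46 members tested in the fit of all libraries (rows, grouped by role) in each library (columns). Day 21 PBS libraries 1 to 3 are low in Tgfb2, Bmp4, Bmp7, Tgfbr2 and Fst, Id2 is low in all 4 day 21 PBS libraries, and Mstn is high in scattered libraries of every group.

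Gdf15, Mstn, Inhba and Acvr1c, known from wasting or from fat cells, gave no call in those of the 5 comparisons where they were tested. Mstn was below the low-count filter in the day 7 test of LLC against PBS. Mstn (myostatin), the muscle-derived brake on muscle growth, was at 0.0492, 13.0, 0, 0.253 and 0.867 CPM in day 21 LLC against 47.3, 1.89, 0 and 0 CPM in day 21 PBS. Day 7 LLC had at most 1.62 CPM and day 7 PBS at most 3.20 CPM. The 4 highest libraries for Mstn (day 21 PBS 1 and LLC 2, day 7 PBS 3, and day 21 PBS 2) had 5813, 2596, 8116 and 1279 CPM summed over 10 skeletal muscle markers, against 2.703 CPM in the library lowest in those markers. Gdf15, a stress cytokine that acts on appetite through the brainstem, was at 3.00, 0.117, 0.496, 0.0633 and 0.133 CPM in day 21 LLC against 0.361, 0.504, 0.196 and 1.11 CPM in day 21 PBS. Only LLC library 1, the library high in cell cycle markers, exceeded the PBS range, and Gdf15 was below the low-count filter in both tests of LLC against PBS. Inhba, the subunit of activin A, was at 1.92, 1.70, 0.298, 0.127 and 0.934 CPM in day 21 LLC against 0.663, 0.818, 0.587 and 1.11 CPM in day 21 PBS (log2 fold change 0.31 ± 0.68, adjusted p 0.801, edgeR). Acvr1c was at 74.2, 134, 166, 165 and 188 CPM in day 21 LLC against 148, 169.6, 113 and 133 CPM in day 21 PBS, so the LLC range enclosed the PBS range (0.02 ± 0.25, adjusted p 0.962, edgeR).

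Genes around the pathway were counted by list. At day 21 none of the 13 latency and activation genes, 13 further secreted antagonists, 10 co-receptors, 15 intracellular regulators, 16 transcripts known to be induced by TGF-beta, 11 known to be induced by BMP or 5 other ligands and receptors was called in LLC against PBS by edgeR. At an unadjusted p under 0.05 there were 3 of 11 tested latency and activation genes, 1 of 9 antagonists, 2 of 9 co-receptors, 5 of 15 intracellular regulators, 5 of 16 TGF-beta induced and 0 of 7 BMP induced genes, against 23.3% of all genes. The lists share genes: Tgif1, Skil and Pmepa1 count among both the intracellular regulators and the TGF-beta induced genes. Ltbp2 is on the latency and the TGF-beta induced lists. Bambi is on the co-receptor and the BMP induced lists, and Sost on the antagonist and the BMP induced lists. The TGF-beta induced list had 9 genes higher and 7 lower in LLC, with a median log2 fold change of 0.50, and the BMP induced list 6 higher and 1 lower with a median of 0.25, beside 0.02 over all genes. In the TGF-beta induced list Tgfbi, a secreted matrix protein, had the smallest p-value (1.19 ± 0.38, adjusted p 0.118, edgeR), and the lower members were Pmepa1 (-0.93 ± 0.42), Ltbp2, Postn, Cdkn2b and the collagens Col1a1, Col1a2 and Col3a1. In the latency list the smallest p-value was that of Ltbp1, which holds latent TGF-beta in the matrix (1.295 ± 0.32, adjusted p 0.0786, edgeR). Without PBS library 4, where 9.3% of all genes were called, the calls were Fbn1, Lrrc32, Ltbp1 and Nrros of the latency list, Dcn, Fstl1 and Nbl1 of the antagonists, Eng of the co-receptors, and Fn1, Tagln, Tgfbi and Tgif1 of the TGF-beta induced list, all higher in LLC, and 0 of the BMP induced list. Dcn and Fbn1 are also on the progenitor and fibroblast marker list.

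Within PBS these lists also held mostly lower calls at day 21 than at day 7, where 3.21% of all genes were called and 2.52% were called lower. Calls were made for 3 of 12 tested latency genes, 2 of 10 antagonists, 1 of 9 co-receptors and 2 of 15 intracellular regulators. They were also made for 3 of 16 TGF-beta induced, 0 of 7 BMP induced and 0 of 2 other ligand and receptor genes. Ltbp2 counts in both the latency and the TGF-beta induced calls. Ltbp1 (log2 fold change -1.93 ± 0.30, adjusted p 0.0036, edgeR) and the microfibril gene Fbn1 (-2.61 ± 0.66, adjusted p 0.0426, edgeR) were lower, and Ltbp2 was higher (1.06 ± 0.27, adjusted p 0.0457, edgeR). Lower calls were also made for the ligand binders Dcn and Twsg1, the membrane protein Tmeff2, the SMAD repressor Ski, the ubiquitin ligase Smurf2, and Tgfbi and Fn1. Fbn1 and Dcn are also progenitor and fibroblast markers, a list of which all 12 genes were lower and 5 were called within PBS. The TGF-beta induced list had 4 genes higher and 12 lower with a median of -0.44, and the BMP induced list 4 higher and 3 lower with a median of 0.01. Over all genes the median was 0.006. In the day 7 test, the difference between days of the tumour effect, and the comparison within LLC, edgeR called 0 genes of these lists; at an unadjusted p under 0.05 the TGF-beta induced list had 3, 3 and 2 of 16 genes in those comparisons, against 1144 of 13445, 2540 of 13975 and 2600 of 13975 genes in all.

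The 15 members below the filter at day 21 were Bmp10, Bmp15, Bmp8a, Bmp8b, Gdf1, Gdf15, Gdf2, Gdf3, Gdf6, Gdf7, Inhbc, Inhbe, Bmpr1b, Grem1 and Nog. They were not tested in the 9 libraries of that day. Bmp8b had 2 and 3 counts in 2 day 7 LLC libraries and 0 elsewhere. Bmp8a, its near-identical neighbour, was tested in the fit of 18 libraries, where it was called higher in LLC at day 21 (log2 fold change 2.57 ± 0.73, adjusted p 0.0231, edgeR). Without PBS library 4 in the fit of day 21 it missed the threshold (3.10 ± 0.96, adjusted p 0.0743, edgeR), as it did within PBS between the days (-2.77 ± 0.75, adjusted p 0.0522, edgeR). How reads divide between these 2 genes is an estimate. The antagonist noggin (Nog) had at most 7 counts in any library.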

How the data were processed

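Poly(A) RNA of 18 libraries in 4 groups was sequenced. Per the submitters' processing notes reads were handled with fastp 0.23.0 and RSEM on mm10 (GRCm38); whether strand was used is not stated. The authors deposited RSEM expected counts, all of them whole numbers in the tables, and TPM values, together with log2 ratios, p-values and FDR values of LLC against PBS in a table for each day. A count of 0 stood beside a TPM above 0 in 176 entries. Members were matched by gene symbol (59 of 21899 IDs), and the members and gene lists were chosen with earlier results of these data known.

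Counts were scaled by TMM and tested with edgeR 4.0.16 (filterByExpr, glmQLFit, glmQLFTest) in R 4.3.3, with Benjamini-Hochberg adjustment over all genes tested and a threshold of 0.05. LLC was tested against PBS in the 9 libraries of each day. Differences between days came from 1 fit of all 18 libraries. Standard errors (SE) were derived from each fold change and its F statistic. Alternatives were DESeq2 1.42.0 and its size factors, no count filter, a replicate block, other sets of libraries and leaving out each library. Both tools were tested on simulated data. Coordinates are from GENCODE and promoters from RefSeq, both on GRCm38. No pair of replicates looked like 1 library deposited more than once (lowest chi-square per gene 15.8 over 32 pairs).

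Members given by library were those called in any comparison, the 5 with the smallest p-value in each test of LLC against PBS, the member with the highest TPM in each role, and Gdf15, Mstn, Inhba and Acvr1c. Any further member named with values was chosen after its values were seen. Replicate numbers were checked for pairing by correlating deviations from group means. At day 7 same-numbered LLC and PBS libraries correlated at 0.12 to 0.531 in all 4 pairs. No correlation was computed for libraries of unlike number and the labels name no pairs, so this does not settle whether the numbers pair libraries. The main tests used no pairing. The block changed no member's call at day 7. Depth was 14566155 to 18969387 counts per library, which limits precision for members with few counts. A single member is counted in the totals but its values are not reported here.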

Additional observations from a re-analysis of the deposited data

Results flagged for a closer look

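The tumour effect differed between days for 2 members by a test of the difference itself. For Id2 the log2 difference of day 21 minus day 7 was 0.97 (adjusted p 0.00927, edgeR), and for Smad9 it was 2.24 (adjusted p 0.0382, edgeR). Day and table cannot be told apart.

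The 22 members given by library were looked at in each of the 4 groups (88 groups of values) on the log2 CPM scale. In 3 of these a single library lay far from the others of its group, by the gap to its nearest neighbour as a share of the group's range (Dixon's ratio, on log2 CPM). Id2 was highest in day 21 PBS library 4 (ratio 0.831), at 11.2 CPM against 9.999 to 10.2 CPM in the other 3 libraries. Inhbb was lowest in day 21 LLC library 4 (ratio 0.773), at 13.4 CPM against 24.4 to 29.1 CPM. Id3 was lowest in day 7 PBS library 4 (ratio 0.875), at 64.5 CPM against 82.9 to 86.0 CPM. Chance alone flags about 1 group in 20.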

How the results depend on the processing

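At day 7 no member was called under any alternative run. At day 21 the 1 member called by edgeR (12 genes) became 8 by DESeq2 (1552 genes), 0 with the replicate block (2 genes), 12 in 1 fit of 18 libraries (2660 genes) and 6 without PBS 4 and LLC 1 and 3 (962 genes); leaving out 1 library gave 0 to 8, with 0 without PBS 1, 2 or 3 and 8 without PBS 4. For the difference between days the 2 calls became 5 by DESeq2, 3 with the replicate block and 7 without those 3 libraries, with 1 to 8 on leaving out 1 library. Within PBS the 7 calls became 15 without those 3 libraries, 5 with no count filter, 9 by DESeq2 and 8 with the replicate block, with 2 to 12 on leaving out 1 library. Within LLC the 1 call became 0 with no filter, 2 by DESeq2, 0 with the 2 groups alone and 7 without those 3 libraries, with 0 to 2 on leaving out 1 library. In the main fits 58 genes in all were called for the difference between days, 449 within PBS and 248 within LLC. The number of all genes called under each alternative is given here for day 21 only. Changes in the other counts are therefore not read as results about the members. The cause was not tested.

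Same-numbered libraries showed no steady correlation at day 21 (-0.273 to 0.302 between LLC and PBS) or between days (PBS -0.404 to 0.501, LLC -0.25 to 0.000276). With the replicate block, which drops LLC 5, Id2 at day 21 had a log2 fold change of 0.99 (adjusted p 0.11, edgeR). Values that changed sign were small or noisy. Under the block they were, at day 7, Tgfbr3 at 0.069, Fst at -0.035 and Id3 at -0.065, and at day 21 Gdf10 at 0.12, Id3 at -0.012, Inhba at -0.11 and Acvr1c at -0.11. Without the 3 libraries Gdf10 was at 0.33 and Smad6 at 0.045 at day 21. On leaving out 1 library at day 21, Acvr1c ran from -0.067 to 0.23, Gdf10 from -0.56 to 0.63, Id3 from -0.049 to 0.23, Inhba from -0.039 to 0.59 and Mstn from -2.56 to 2.13. At day 7, Acvr1c ran from -0.12 to 0.059, Acvrl1 from -0.061 to 0.082, Fst from -0.073 to 0.093, Id3 from -0.062 to 0.10, Smad6 from -0.30 to 0.10 and Tgfbr3 from -0.13 to 0.070.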
